A study of Mus musculus with 16 samples.

Results

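The proteasome genes of IFNγ-primed bone marrow-derived macrophages (BMMs) were examined after activation with LPS and immune complexes. The members were all genes whose symbol starts with Psma, Psmb, Psmc, Psmd, Psme, Psmf or Psmg and a digit, together with Pomp and Adrm1, leaving out the annotated pseudogenes. This gave 52 of the 47069 genes in the count table. Psmb8, Psmb9, Psmb10, Psme1 and Psme2, the 5 genes of the immunoproteasome and its activator PA28, were set apart from the other 47. Psmc3ip and Psme2b entered by their symbols alone, since Psmc3ip encodes a protein of meiotic recombination and Psme2b is a second copy of Psme2. BMMs of C57BL/6 mice aged 8 to 10 weeks were harvested at day 7 of culture in L929-conditioned media, primed overnight with IFNγ (10 ng/mL), and activated for 1 hr with Salmonella LPS (100 ng/mL) and ovalbumin opsonized with rabbit IgG (LPS/ICs). Activation took place in the presence of the γ-secretase inhibitor (GSI) DAPT at 25 μM, which blocks the cleavage of Notch receptors, or of its vehicle DMSO at 0.01%. Both groups were thus primed and activated, and no resting, unprimed or LPS-only cells were sequenced. The study's methods state that inhibitor or vehicle was already given overnight before activation, while legends of its other experiments give a shorter pretreatment. RNA-seq gave 2 replicates per group with 4 runs each. The labels do not state whether the replicates came from separate mice, so the p-values measure the spread between these libraries, which may be technical.

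The proteasome is the protease that degrades ubiquitin-tagged proteins in the cytosol and nucleus. Its barrel, the 20S core, is built from rings of α subunits, which form the gate, and rings of β subunits, of which Psmb5, Psmb6 and Psmb7 carry the active sites. The 19S cap adds a base, whose ATPases unfold the substrate, and a lid, which removes ubiquitin. IFNγ is known to induce Psmb8, Psmb9 and Psmb10, which replace the standard catalytic subunits in newly built cores to form the immunoproteasome, and the PA28 subunits Psme1 and Psme2. These changes favour the production of peptides for MHC class I. Proteasome genes are also known to be induced together by the transcription factor NRF1, encoded by Nfe2l1, when proteasome activity is short.

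To show the DNA in front of these genes, the promoters of Psmb5 and Psmb6, as standard catalytic subunits, and of Psmb8 and Psme1, as IFNγ-induced genes, are given from 250 bases before to 50 bases after the RefSeq start site (GRCm38.p6). They were picked because each holds a match to one of 3 response motifs, printed in capitals. The motifs, searched on both strands, were the antioxidant response element core (TGACNNNGC), the site class to which NRF1 binds, the interferon-stimulated response element (GAAA, any 2 bases, GAAA) and the γ-activated site (TTCNNNGAA). The Psmb5 promoter lies at chr14:54617946-54618245 on the minus strand, that of Psmb6 at chr11:70525107-70525406 on the plus strand, that of Psmb8 at chr17:34197945-34198244 on the plus strand and that of Psme1 at chr14:55578244-55578543 on the plus strand.
Psmb5: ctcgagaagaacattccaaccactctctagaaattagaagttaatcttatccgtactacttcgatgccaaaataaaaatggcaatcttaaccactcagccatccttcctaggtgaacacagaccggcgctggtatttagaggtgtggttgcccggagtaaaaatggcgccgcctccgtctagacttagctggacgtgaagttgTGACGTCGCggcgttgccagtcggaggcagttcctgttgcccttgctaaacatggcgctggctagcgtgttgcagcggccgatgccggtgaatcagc
Psmb6: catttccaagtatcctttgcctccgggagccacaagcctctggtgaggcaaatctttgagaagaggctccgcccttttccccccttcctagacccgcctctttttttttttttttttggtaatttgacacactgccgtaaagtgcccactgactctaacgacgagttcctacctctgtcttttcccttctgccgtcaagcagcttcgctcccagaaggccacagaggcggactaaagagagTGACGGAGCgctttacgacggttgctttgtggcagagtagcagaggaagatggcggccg
Psmb8: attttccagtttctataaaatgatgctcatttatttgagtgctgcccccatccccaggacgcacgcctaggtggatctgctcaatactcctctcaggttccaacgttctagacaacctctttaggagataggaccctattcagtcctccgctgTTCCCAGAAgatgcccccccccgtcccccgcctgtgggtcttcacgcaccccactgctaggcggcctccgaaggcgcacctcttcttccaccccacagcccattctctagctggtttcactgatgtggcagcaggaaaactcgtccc
Psme1: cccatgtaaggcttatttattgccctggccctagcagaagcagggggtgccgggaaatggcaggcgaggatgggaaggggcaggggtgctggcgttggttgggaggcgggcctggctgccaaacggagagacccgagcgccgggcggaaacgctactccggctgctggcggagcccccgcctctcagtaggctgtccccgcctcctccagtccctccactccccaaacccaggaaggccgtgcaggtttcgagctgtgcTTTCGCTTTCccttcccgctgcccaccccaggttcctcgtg
The match to the antioxidant response element core began 47 bases before the start site in Psmb5 and 9 bases before it in Psmb6. In Psmb8 the γ-activated site match began 97 bases before the start site, and in Psme1 the interferon-stimulated response element match lay on the minus strand just past it. Of the 44 members with a promoter in the RefSeq table, 7 (15.9%) held TGACNNNGC, against 14.0% of the 27025 genes in that table. The interferon-stimulated response element was found in 5 members (11.4%, against 3.99% of all genes) and TTCNNNGAA in 3 (6.82%, against 9.55%). Those 5 members were Psmb3, Psmd4, Psmd9, Psme1 and Psmg4, of which Psme1 alone belongs to the immunoproteasome and PA28 genes. Of the general promoter motifs, CCAAT was present in 16 members (36.4%, against 41.1%), the ETS core GGAAGT in 21 (47.7%, against 26.5%) and the AP-1 site TGAGTCA in 1 (2.27%, against 5.95%). The AP-1 site, read on the other strand, can lie within a match to TGACNNNGC, and Psmd9 held both motifs. A match is a description of the letters, and binding was not measured.

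The 4 libraries held 42694655 to 56932059 counts, so that 3 counts, the upper limit for a gene with a count of 0, were 0.0527 to 0.0703 CPM (counts scaled to equal library size). Such limits cover counting error alone. The 4 runs of each replicate differed by about as much as sampling noise (chi-square per degree of freedom 1.01 to 1.03) and were summed. The macrophage markers Adgre1, Cd68, Csf1r, Itgam, Lyz2, Mertk and Fcgr1 summed to 10430 and 10723 CPM with DMSO and to 8403 and 9186 CPM with GSI, with 5 of the 7 lower, 1 higher (Mertk) and Cd68 not called. The markers of neutrophils, T cells, B cells and fibroblasts each summed to at most 1.08 CPM in every library, those of dendritic cells to 3.69 to 5.25 CPM, nearly all of it Xcr1, and those of erythroid and mast cells were at 0. The part of the lower macrophage markers in the results below was not tested. In such bulk samples a change of RNA per cell cannot be told apart from a change in the mix of cells.

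Proteasome genes rose together with GSI. The quasi-likelihood test of edgeR was run over all 13211 genes left by its filter on low counts, p-values were adjusted by Benjamini-Hochberg (FDR), and a gene was called when its FDR was under 0.05. Of the 52 members, 51 were tested and 38 were higher with GSI, whereas 19.0% of all tested genes were higher. The members called rose by 1.13-fold to 1.60-fold, and their log2 fold changes lay between 0.18 and 0.68. No member was called lower (edgeR), against 21.9% of all tested genes. At an unadjusted p under 0.05, 1 member, Psmc3ip, was lower, and DESeq2 also called 0 lower. The other 13 tested members were not called, 10 of them with a log2 fold change above 0 and 3, Psmd1, Psme4 and Psmc3ip, below 0. The median log2 fold change was 0.29 over the 51 members and 0.01 over all tested genes, whose middle quartiles ran from -0.25 to 0.24. Of the members, 36 lay above the upper quartile of all genes.

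These changes were small. No called member was past 1.5 on the log2 scale in either direction, against 2.91% of all tested genes. Because most members are well expressed, they were also set beside genes of that kind: of the 46 members averaging at least 10 CPM, 36 (78.3%) were higher, against 22.6% of all genes at that level. Both GSI libraries lay above both DMSO libraries for 45 of the 51 tested members, and for 35.8% of all tested genes. Together the members took 0.704% and 0.688% of all counts with DMSO and 0.876% and 0.870% with GSI. The calls of the smaller changes depended on single libraries: 24 of the 38 stayed called whichever of the 4 libraries was removed, and the number of members called was 32 without DMSO replicate 1, 28 without DMSO replicate 2, 35 without GSI replicate 1 and 32 without GSI replicate 2. Of all tested genes, 13.3%, 14.7%, 17.3% and 17.0% were higher in these fits. The 14 members that lost their call in at least 1 of them were Psma2, Psma3, Psma6, Psmc1, Psmc2, Psmc6, Psmd2, Psmd3, Psmd5, Psmd9, Psmd11, Psmf1, Psmg2 and Psmg4, each with a log2 fold change above 0 in all 4. When edgeR tested against a change of 1.2-fold rather than of any size, 12 members were called, all higher, and 6.95% of all tested genes were higher.

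**Figure D1:**
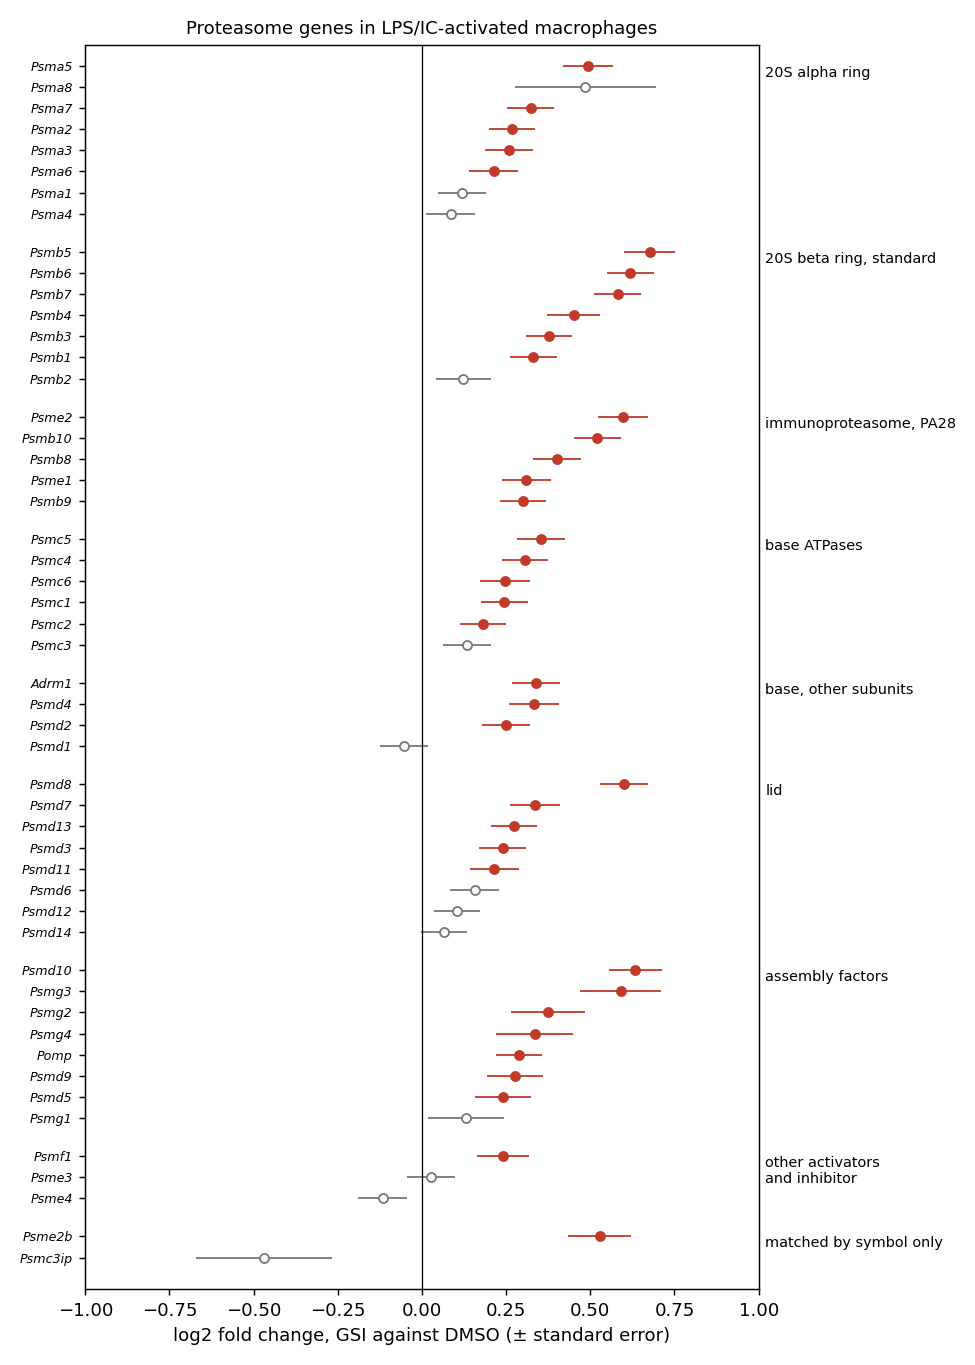
Log2 fold change of each tested proteasome gene, GSI against DMSO (x axis), with its standard error as a bar, grouped by place in the complex. Filled red points had an FDR under 0.05 in edgeR's quasi-likelihood test and open points did not; 38 of 51 are filled, all to the right of 0, and Psmd1, Psme4 and Psmc3ip are the 3 points left of 0.

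**Figure D2:**
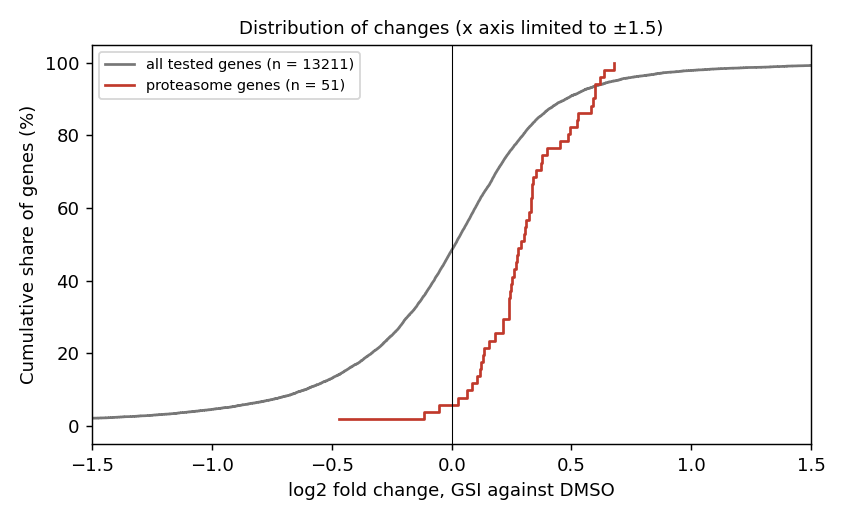
Cumulative share of genes (y axis, %) by log2 fold change, GSI against DMSO (x axis, limited to ±1.5), for the 51 tested proteasome genes and for all 13211 tested genes. The proteasome curve is shifted to the right, with a median of 0.29 against 0.01, and is narrower.

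The standard catalytic subunits showed the largest increases of the core. Psmb5, the chymotrypsin-like subunit, on chromosome 14 of GRCm38 (54614119 to 54618022, minus strand), had 51.9 and 51.0 CPM with DMSO and 77.8 and 86.6 CPM with GSI. Its replicates lay far closer to each other than to the other group, and it changed the most of all members, by 1.60-fold (log2 fold change 0.68, standard error 0.0750, edgeR FDR = 4.29e-07). Psmb6, the caspase-like subunit, on chromosome 11 (70525367 to 70527858, plus strand), had 153.6 and 151.5 CPM with DMSO and 244 and 225 CPM with GSI. It rose by 0.62 on the log2 scale (standard error 0.0711, edgeR FDR = 6.68e-07). Psmb7, the trypsin-like subunit, on chromosome 2 (38588036 to 38644087, minus strand), had 165 and 157 CPM with DMSO and 242 and 239 CPM with GSI. It rose by 0.58 on the log2 scale (standard error 0.0695, edgeR FDR = 1.15e-06), and its exons share 405 bases with those of Nek6 on the other strand.

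The 3 immune catalytic subunits rose as well. Psmb8, the counterpart of Psmb5, lies in the MHC region of chromosome 17 and had the most counts of the catalytic subunits, with 542 and 548 CPM with DMSO and 715 and 723 CPM with GSI. The groups did not overlap, and the log2 fold change was 0.40 (standard error 0.0712, edgeR FDR = 0.000140). Psmb9, the counterpart of Psmb6, which lies beside Tap1 in that region, had 194 and 195 CPM with DMSO and 233 and 246 CPM with GSI, the smallest change of the 5 immunoproteasome genes (log2 fold change 0.30, standard error 0.0693, edgeR FDR = 0.00163). Its exons share 212 bases with those of Tap1 on the other strand. Psmb10, the counterpart of Psmb7, had 351 and 348 CPM with DMSO and 507 and 496 CPM with GSI (log2 fold change 0.52, standard error 0.0700, edgeR FDR = 5.26e-06). All 3 stayed called whichever library was removed.

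PA28, the ring that opens the core in place of the 19S cap, rose in both subunits. Psme1, the α subunit, had 458 and 468 CPM with DMSO and 597 and 550 CPM with GSI (log2 fold change 0.31, standard error 0.0730, edgeR FDR = 0.00194). Psme2, the β subunit, was the member with the most counts under GSI, with 514 and 535 CPM with DMSO and 763 and 824 CPM with GSI. It rose by 0.60 on the log2 scale (standard error 0.0742, edgeR FDR = 1.86e-06). Its second copy Psme2b had 20.6 and 19.0 CPM with DMSO and 25.9 and 31.1 CPM with GSI and also rose (log2 fold change 0.53, standard error 0.0927, edgeR FDR = 0.000120). Of the 50-base words of the Psme2 transcript, 59.3% also occur in Psme2b, so that reads of the pair could be told apart only in part. All 5 genes of the immunoproteasome and PA28 were thus higher, with a median log2 fold change of 0.40, and their summed level went from 2060 and 2093 CPM with DMSO to 2816 and 2840 CPM with GSI.

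**Figure D3:**
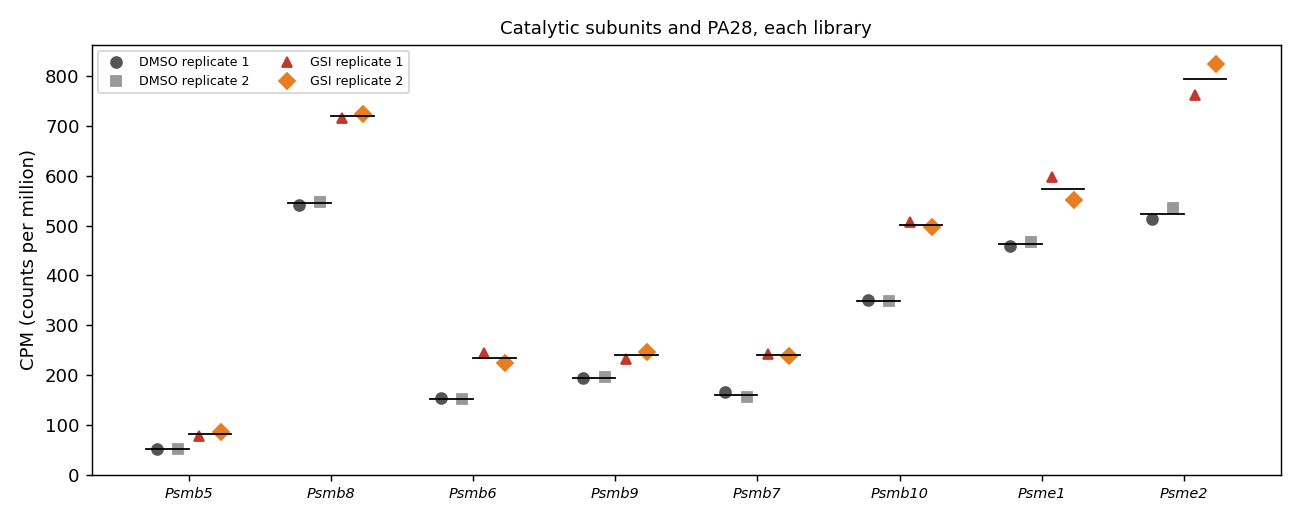
CPM (y axis) of the standard catalytic subunits Psmb5, Psmb6 and Psmb7, each followed by its immune counterpart, and of PA28 in the 4 libraries. Each point is 1 library and each line the mean of a group of 2; for all 8 genes both GSI points lie above both DMSO points.

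The immune and standard subunits compete for the same places in the core, so their levels per transcript length were compared within each library. Psmb8 stood at 5.77 and 5.93 times the level of Psmb5 per kb with DMSO and at 5.08 and 4.61 times with GSI. Psmb9 stood at 0.746 and 0.761 times the level of Psmb6 per kb with DMSO and at 0.564 and 0.647 times with GSI. Both ratios were thus lower in both GSI libraries, by -0.27 and -0.32 on the log2 scale. Psmb10 stood at 1.88 and 1.97 times the level of Psmb7 per kb with DMSO and at 1.85 and 1.83 times with GSI. This ratio was also lower in both GSI libraries, by a small shift of -0.06. The exact permutation test, 2-sided, gave p = 0.333 for each pair, the smallest it allows for 2 against 2 libraries, so it says nothing about these differences, and no other test of the ratios was run. The size of the ratios depends on the transcript lengths chosen. By the length of all annotated exons the mean DMSO ratios were 2.82, 0.653 and 4.36, in the same order of pairs. Of the words of the Psmb5 transcript, counted as for Psme2, 57.1% also occur in other genes, while Psmb8 shares none. Reads from shared words may not be assigned to either gene. The level of Psmb5 may thus be understated and the ratio of Psmb8 to Psmb5 overstated, by an amount that was not tested.

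The rest of the β ring also rose, apart from Psmb2. Of the 7 tested standard β genes, 6 were higher, with a median log2 fold change of 0.45, the largest of the groups of the 26S complex. Psmb4, which closes the ring's assembly order, had 122 and 119 CPM with DMSO and 151 and 179 CPM with GSI (log2 fold change 0.45). Psmb1 and Psmb3, structural subunits, had log2 fold changes of 0.33 and 0.38. Psmb2 had 158 and 149.9 CPM with DMSO and 184 and 151.2 CPM with GSI. Its groups overlapped, its log2 fold change of 0.12 was not called (edgeR FDR = 0.248), and GSI replicate 1 decided it: the value was -0.03 without GSI replicate 1 and 0.26, then called, without GSI replicate 2. Psmb11, the subunit of the thymoproteasome found in thymic cortical epithelium, was the member that failed the filter on low counts, with 0, 0, 0 and 1 counts in the 4 libraries.

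In the α ring, 5 of the 8 genes were higher, with a median log2 fold change of 0.26. Psma5 had the largest change of them, with 132 and 124 CPM with DMSO and 169.5 and 189.8 CPM with GSI (log2 fold change 0.49, standard error 0.0742, edgeR FDR = 2.11e-05). Psma7, Psma2, Psma3 and Psma6 rose by 0.32, 0.27, 0.26 and 0.21 on the log2 scale. Psma6 had 159 and 148 CPM with DMSO and 172 and 185 CPM with GSI, and its call was lost without DMSO replicate 2 and without GSI replicate 2 (log2 fold change 0.16 in both). Psma4, with the smallest change, had 224 and 224 CPM with DMSO and 252 and 224 CPM with GSI, and 1 GSI library lay level with the DMSO libraries (log2 fold change 0.09, edgeR FDR = 0.378, and -0.00241 without GSI replicate 1). Psma1 had a log2 fold change of 0.12 and was not called. Psma8, the form of the α4 subunit used in testis, was barely expressed at 1.32 and 1.09 CPM with DMSO and 1.74 and 1.62 CPM with GSI, and its log2 fold change of 0.49 was not called (edgeR FDR = 0.0697).

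Although the core holds its subunits in equal numbers, their mRNA levels per length were unequal. By the length of the principal transcript, over the 14 standard α and β genes, leaving out Psma8 and Psmb11, the mean level with DMSO ran from 54.0 CPM per kb for Psma2 to 192.3 CPM per kb for Psma4, a 3.56-fold range. Psma3 (58.2) and Psmb5 (57.2) stood beside Psma2 at the lower end. Of their words, 22.0% and 57.1% also occur in other genes, against 3.53% for Psma2, so reads may be missing from these levels. At the upper end Psma4 was followed by Psmb6 (191.2), Psma1 (183), Psmb2 (179) and Psma7 (173), and the DMSO libraries of each of these 5 overlapped with those of the next. This order depended on the length used: by all annotated exons, Psmb2 (127.9 CPM per kb) and Psma6 (124.7) were highest with DMSO and Psmb1 (31.2) and Psmb3 (31.9) lowest, with Psma4 at 94.5 and Psma2 at 42.8. By the principal transcript, with GSI, Psmb6 came first at 294 CPM per kb, and the range was 4.52-fold. Psmb8 (335 CPM per kb) and Psmb10 (267) were above every standard subunit of the core already with DMSO, by either length. Highest of all members, also by either length, were Psme2 (545 CPM per kb) and Psme1 (416).

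**Figure D4:**
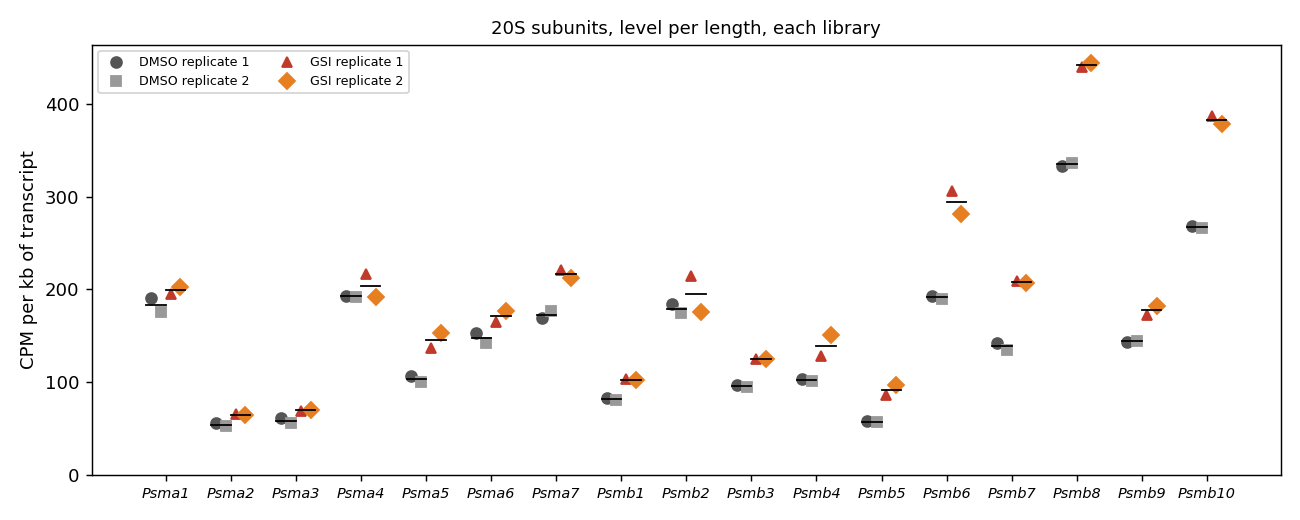
Level per length (y axis, CPM per kb of the principal transcript) of the α and β subunits of the 20S core in the 4 libraries, with a line at the mean of each group of 2. Among the standard subunits Psma4 and Psmb6 are highest with DMSO and Psmb6 with GSI; Psmb8 and Psmb10 lie above them.

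The ATPases of the 19S base lay in a narrow band. Of the 6 genes, 5 were higher, with log2 fold changes from 0.13 to 0.35 over all 6. Psmc5 had the largest change, with 87.4 and 87.9 CPM with DMSO and 116 and 108 CPM with GSI (log2 fold change 0.35, standard error 0.0704, edgeR FDR = 0.000436). Psmc4, Psmc6 and Psmc1 rose by 0.31, 0.25 and 0.25 on the log2 scale. Psmc2 was at the edge of the threshold, with 131.4 and 127.6 CPM with DMSO and 150.1 and 143.6 CPM with GSI (log2 fold change 0.18, edgeR FDR = 0.0412). It was called in only 1 of the 4 fits that left out a library, that without GSI replicate 2, and had values of 0.20 without DMSO replicate 1, 0.16 without DMSO replicate 2 and 0.15 without GSI replicate 1. Psmc3 had the smallest change, with 162 and 158 CPM with DMSO and 183 and 168 CPM with GSI, and was not called (log2 fold change 0.13, edgeR FDR = 0.137).

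Of the other base subunits, Adrm1 (Rpn13) and Psmd4 (Rpn10), the ubiquitin receptors, and Psmd2, a scaffold, were higher. Adrm1 had 58.5 and 61.1 CPM with DMSO and 77.1 and 74.4 CPM with GSI (log2 fold change 0.34, standard error 0.0713, edgeR FDR = 0.000704). Psmd4 and Psmd2 rose by 0.33 and 0.25 on the log2 scale. Psmd1, the largest subunit of the base and a scaffold like Psmd2, had 139 and 142 CPM with DMSO and 141 and 130 CPM with GSI. Its groups overlapped, and its log2 fold change was -0.05 (edgeR FDR = 0.584), or 0.00387 without GSI replicate 2 and 0.028 with the trend over transcript length and GC content removed. It was not tested against Psmd2.

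In the lid, 5 of the 8 genes were higher, with a median log2 fold change of 0.23. Psmd8, on chromosome 7 (29174188 to 29180701, minus strand), had 249 and 239 CPM with DMSO and 385 and 355 CPM with GSI (log2 fold change 0.60, standard error 0.0720, edgeR FDR = 1.23e-06). Its level per length, 158 CPM per kb with DMSO, was also the highest of the lid, where the median was 51.3 CPM per kb. Psmd7, Psmd13, Psmd3 and Psmd11 rose by 0.33, 0.27, 0.24 and 0.22 on the log2 scale. Psmd11 had 87.5 and 83.7 CPM with DMSO and 103 and 95.3 CPM with GSI, and its call was lost without DMSO replicate 2 (0.18) and without GSI replicate 1 (0.15). Psmd14, the deubiquitinase of the lid, had 98.5 and 94.4 CPM with DMSO and 102.3 and 99.4 CPM with GSI, and its log2 fold change of 0.07 was not called (edgeR FDR = 0.481). Psmd6 and Psmd12, at 0.16 and 0.10, were not called either. Whether Psmd8 and Psmd14 differ in their response was not tested.

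Of the 8 assembly factors, which build the complex and leave it, 7 were higher. Psmd10 (gankyrin), a chaperone of the base, on chromosome X (140948429 to 140956728, minus strand), had 30.2 and 28.6 CPM with DMSO and 48.2 and 43.0 CPM with GSI. It rose by 0.63 on the log2 scale (standard error 0.0798, edgeR FDR = 2.27e-06), the second largest change of all members. The other base chaperones, Psmd5 and Psmd9, rose by 0.24 and 0.28. Pomp, which guides the assembly of the core, was the most abundant of the group, with 204 and 203 CPM with DMSO and 254 and 244 CPM with GSI (log2 fold change 0.29). The chaperones of the α ring were weakly expressed, with 4.97 to 17.3 CPM in any library: Psmg3, Psmg2 and Psmg4 rose by 0.59, 0.37 and 0.34 on the log2 scale. The call of Psmg2 was lost without DMSO replicate 2 (0.31) and without GSI replicate 2 (0.27). Psmg4 moved with single libraries, to 0.17 without DMSO replicate 1 and 0.20 without GSI replicate 2, both not called, and to 0.54 without DMSO replicate 2. DESeq2 called neither Psmg2 nor Psmg4. Psmg1, with 6.67 and 6.31 CPM with DMSO and 6.91 and 7.27 CPM with GSI, was not called (log2 fold change 0.13, edgeR FDR = 0.380).

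Of the 3 other regulators of the core, 1 was higher and the other 2 were not called. Psmf1 (PI31), described as an inhibitor of the core, had 32.77 and 32.78 CPM with DMSO and 37.2 and 40.2 CPM with GSI. It was higher (log2 fold change 0.24, standard error 0.0765, edgeR FDR = 0.0165), but the call held only without GSI replicate 1, and its value was 0.24 without either DMSO library and 0.18 without GSI replicate 2. Psme3 (PA28γ), the nuclear relative of PA28 that IFNγ does not induce, had 67.5 and 68.5 CPM with DMSO and 71.8 and 66.8 CPM with GSI (log2 fold change 0.03, edgeR FDR = 0.798). Psme4 (PA200), a nuclear activator, had 134 and 122 CPM with DMSO and 115 and 121 CPM with GSI. Both GSI libraries lay below both DMSO libraries, by little, and its log2 fold change of -0.12 was not called (edgeR FDR = 0.210). Psmc3ip, matched by symbol only, had 1.74 and 1.69 CPM with DMSO and 1.28 and 1.19 CPM with GSI (log2 fold change -0.47, edgeR FDR = 0.0698), and 385 bases of its exons lie across from Mlx.

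Genes that act with the proteasome were examined from lists of 43 genes. Of these, 10 (23.3%) were higher and 4 lower, shares close to or below those of all tested genes (19.0% and 21.9%). Among the transcription factors of proteasome genes and their processing, 3 of 9 were higher and 2 lower. Nfe2l1 (NRF1) had 199 and 206 CPM with DMSO and 311 and 284 CPM with GSI (log2 fold change 0.55, standard error 0.0721, edgeR FDR = 3.52e-06). Mafg, a partner of NRF1 on DNA, had 63.2 and 78.6 CPM with DMSO and 99.8 and 105 CPM with GSI (log2 fold change 0.53). Keap1, the adaptor that targets NRF2 for degradation, had 53.8 and 53.4 CPM with DMSO and 80.6 and 70.0 CPM with GSI (log2 fold change 0.49). All 3 of these genes were higher in both GSI libraries. Ddi2, the protease that activates NRF1, had 56.4 and 53.3 CPM with DMSO and 46.5 and 40.2 CPM with GSI and was lower (log2 fold change -0.34, edgeR FDR = 0.00204). Bach1, a repressor at antioxidant response elements, was also lower, with 194.7 and 194.5 CPM with DMSO and 135 and 138 CPM with GSI (log2 fold change -0.51). Nfe2l2 (NRF2) had 655 and 551 CPM with DMSO and 567 and 519 CPM with GSI, which overlapped, and was not called (log2 fold change -0.15). Its value depended on single libraries, from -0.27 to -0.02 over the fits that left out 1 library.

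Among the genes for ubiquitin and its activation, Ubb, which encodes ubiquitin, was higher. It had 386 and 413 CPM with DMSO and 517 and 479 CPM with GSI (log2 fold change 0.32). Rps27a, which encodes ubiquitin fused to a ribosomal protein, had a log2 fold change of 0.11 and was not called. Uba6, one of the enzymes that activate ubiquitin, had 47.0 and 45.1 CPM with DMSO and 25.1 and 28.2 CPM with GSI, the largest change of the lists (log2 fold change -0.79, standard error 0.0800, edgeR FDR = 1.35e-07). Uba1, the main activating enzyme, had a log2 fold change of -0.11 and was not called.

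Of the 19 enzymes, shuttles and partners that bind the proteasome, 2 were higher, 1 was lower and 16 were not called, against 19.0% higher and 21.9% lower of all tested genes. Sem1, the smallest lid subunit, which the symbol rule does not reach, was higher with 118.1 and 102.4 CPM with DMSO and 145.3 and 124.9 CPM with GSI (log2 fold change 0.29, edgeR FDR = 0.00774), a call that was lost without DMSO replicate 2 (0.19) and without GSI replicate 1 (0.18). Bag6, a chaperone of mislocalized proteins, had 137 and 148 CPM with DMSO and 115 and 127 CPM with GSI (log2 fold change -0.23), a call lost without DMSO replicate 2 (-0.18) and without GSI replicate 1 (-0.17). The deubiquitinases Usp14 and Uchl5 (0.02 and 0.03) and the segregase Vcp (0.05) were not called.

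Of the genes of interferon control and peptide loading, 3 of 9 were higher, against 19.0% of all tested genes, and the other 6 were not called. With so few genes that count is near the general share. Tapbp (tapasin) had 1414 and 1491 CPM with DMSO and 1820 and 1861 CPM with GSI (log2 fold change 0.34, edgeR FDR = 0.000914). Tap2, a subunit of the peptide transporter, had 348 and 361 CPM with DMSO and 424 and 448 CPM with GSI (log2 fold change 0.30). Tap1, which is transcribed away from Psmb9 from a shared promoter, had 792 and 845 CPM with DMSO and 899 and 976 CPM with GSI (log2 fold change 0.20, edgeR FDR = 0.0439), and its call held only without GSI replicate 1, with 0.15 without DMSO replicate 1, 0.24 without DMSO replicate 2 and 0.14 without GSI replicate 2. Irf1, the factor through which IFNγ induces Psmb9, and Nlrc5, the activator of MHC class I genes, had log2 fold changes of 0.13 and 0.07 (edgeR FDR = 0.179 and 0.443). B2m, the light chain of MHC class I, had 8515 and 7888 CPM with DMSO and 9469 and 7785 CPM with GSI, with overlapping groups (log2 fold change 0.07, edgeR FDR = 0.542). Its value changed sign with single libraries, from -0.075 to 0.21 over the fits that left out 1 library. Erap1, the peptidase that trims peptides for MHC class I, had a log2 fold change of -0.04 and was not called.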

How the data were processed

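RNA-seq of 2 DMSO and 2 GSI replicates of LPS/IC-activated BMMs was analysed. Per the labels and the study's methods, the authors made strand-specific poly(A) libraries (TruSeq, NextSeq), trimmed them with Trimmomatic, aligned them with STAR (2.5.0a in the submitters' processing notes, which list mm9 and mm10 without a role) and deposited raw counts per gene and run from HTSeq, whose mode and strand setting are not given in the sources used here. The methods state that GSI was added overnight before activation, the labels only that it was present. All 16 columns were used. The 4 runs of a replicate were summed.

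Counts were fitted with edgeR 4.0.16 in R 4.3.3 (filterByExpr, TMM, glmQLFit and glmQLFTest with group as the only factor) over all 13211 genes that passed the filter, with Benjamini-Hochberg adjustment. The standard error is the absolute log2 fold change divided by the square root of F. CPM used TMM-adjusted library sizes. Lengths are those of the principal (APPRIS) transcript in GENCODE M21, which held 46574 of the 47069 gene IDs, and positions are from that annotation (GRCm38, mm10). The scripts were tested on simulated data. The members and gene lists were chosen with earlier results of these data known. Values in every library are given by rule for the immunoproteasome genes and their counterparts, the largest and smallest change of each group, the 3 largest and smallest changes called, members that failed the filter, and the 3 largest changes called in each direction of each list of genes acting with the proteasome; some genes of these lists are counted but not reported here by name. Other genes with values were chosen after they were seen. Alternatives were DESeq2 1.42.0, other normalization and filters, a replicate block, single runs, a test against 1.2-fold, genes without exons on the other strand and leaving out each library. A crossed block and the removal of a length and GC trend were added after the data were seen.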

Additional observations from a re-analysis of the deposited data

How the results depend on the processing

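The 38 higher members were 34 with DESeq2 (12.8% of all genes with an adjusted p were higher), all of them among the 38, 38 with RLE factors (18.4% of all genes), 37 with no normalization factors (18.2%), and 38 with no filter (12.2%) or at least 10 counts in every library (19.5%). Leaving out 1 library gave 28 to 35. Tested against 1.2-fold, 12 members, 3 of the 5 immunoproteasome and PA28 genes, 4 higher and 2 lower pathway genes were called, by construction. Among genes without exons on the other strand, 29 of the 39 members tested were higher (18.5% of all genes), the 2 of the 5 immunoproteasome and PA28 genes left were both called, and 4 of 26 pathway genes were higher. With the 16 runs as samples, whose differences are sampling noise, 46 members were higher (34.9% of all genes), 2 members were lower, and 21 pathway genes were higher and 8 lower. The pathway genes called lower numbered 4 to 7 when 1 library was left out, with 7 without GSI replicate 1. The replicate numbers mark no shared mouse or day in the labels, and the deviations of same-numbered libraries correlated at 0.155. With the replicate block 40 members were higher (23.7% of all genes) and 1, Psmc3ip, was lower. With a crossed block 37 were higher (16.8%), and the lower call of Psmc3ip was not made. Over the genes whose values are given by rule, 492 of the single values kept direction and side of the threshold, 42 lost the call and 8 gained it. Another 3 changed sign, all of them of genes not called: Psma4 (-0.00241 without GSI replicate 1, range over the libraries left out -0.00241 to 0.17), Psmb2 (-0.026 without GSI replicate 1, range -0.026 to 0.26) and Psmd1 (0.00387 without GSI replicate 2, range -0.11 to 0.00387). Other genes with values were not in this tally, and some of them changed sign too, such as Psme3 (-0.026 without GSI replicate 1). Member transcripts are shorter than those of all tested genes (median 1440 against 2789 bases). With the length and GC trend removed, their median log2 fold change was 0.29, and 50 of 51 were above 0. Depth limits Psma8, Psmc3ip and Psmb11.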

Other observations

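Several members have near-identical copies elsewhere, whose reads may not be assigned to either gene. Of the 50-base words of the principal transcript, over 50% also occur in other genes for 6 members: Adrm1 (78.0%), Psme2b (69.3%), Psme2 (59.3%), Psmb5 (57.1%), Psmb3 (55.8%) and Psma5 (54.5%), while 28 members share none. Psme2 and Psme2b are each other's copy, and Psme2b had 886 to 1536 counts per library. The copies of Psmb5 and Adrm1 held few counts. Gm3375, which shares 420 words with Psmb5, had 26 and 25 counts in the DMSO libraries against 40 and 58 in the GSI libraries. Gm9774, which shares 1159 words with Adrm1, had 50 and 58 counts in the DMSO libraries against 63 and 67 in the GSI libraries. Of the 37 tested members that share under 5% of their words, 26 were higher and 0 lower (edgeR). Of all tested genes, 19.0% were higher and 21.9% lower. The median log2 fold change of the 37 members was 0.28. The 4 pseudogenes left out by the rule held 0 to 7 counts per library, all but 1 of them on Psmb6-ps2.

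Exons of 12 members share bases with exons of a gene on the other strand, and 8 of these 12 were higher, against 19.0% of all tested genes.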
